A study of Mus musculus with 66 samples.

Results

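Ntn1, Fabp3, Nid2, Igfbp2, Zc3h12a and Tcl1 are 6 of the 13957 genes in a deposited table of RNA levels from mouse embryonic stem cells. They were picked by name from among the genes with the lowest levels, relative to untreated cells, when auxin was used to degrade the nuclear receptors Esrrb and Nr5a2. The values that picked them are their RNA levels after release from mitosis with and without auxin, so the differences between these arms describe the 6 genes and are no test of them. The cells were an E14Tg2a derivative of 129/Ola background in which auxin triggers degradation of both receptors. Both arms carried the degradable receptors, and no RNA group had auxin without them. Each arm, untreated or with auxin, was sampled at 9 stages, which makes 18 groups of 3 libraries: growing unsynchronized (asynchronous), held in mitosis, and after release at every 10 minutes from 20 to 60, at 90 and at 120 minutes. The arm is known from the sample titles, since the treatment entry reads control for every library. No source used here gives the time at which auxin was added. Nr5a2 binding was mapped by ChIP-seq in wild-type E14Tg2a cells, in interphase and in mitosis, with 3 Nr5a2 and 3 input libraries each, and was given as 1 list of peaks.

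Esrrb and Nr5a2 are orphan nuclear receptors of the pluripotency network that bind closely related DNA sites built on an extended half-site, and both are known to stay on many of their sites in mitosis, which is called mitotic bookmarking. When a cell leaves mitosis, transcription restarts genome-wide, and bookmarking is studied as a way by which a cell may restart the genes of its own identity. The 6 genes have unrelated products. Ntn1 encodes netrin-1, a secreted guidance cue, Igfbp2 a secreted protein that binds insulin-like growth factors, and Nid2 nidogen-2, which links laminin and collagen IV networks in basement membranes. Fabp3 encodes a cytoplasmic fatty acid carrier, Zc3h12a an RNase (regnase-1) that degrades inflammatory transcripts, and Tcl1 a co-activator of the kinase AKT. Tcl1 is often listed with the naive pluripotency genes of mouse embryonic stem cells, so the description of the 6 as lying outside that network suits it least.

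RNA levels are the authors' mean TPM (a level scaled for gene length and library size) of each group, 1 value per group. No value therefore has a replicate spread, no single gene has a test here, and the depth per library is unknown. TPM of the listed genes summed to 17155 to 49059 per group. The cells' identity was checked on markers: 7 of 8 embryonic stem cell markers were in the table, and their summed level ran from 34.5 to 122 TPM without and from 32.1 to 93.3 TPM with auxin. Of these 7, 6 were called lower with auxin in the authors' deposited table. Primitive endoderm markers (5 of 7 in the table) summed to at most 0.627 TPM without and 0.558 TPM with auxin, and Dab2 and Foxa2 were listed at 0 in some groups. Fibroblast markers (3 of 7) summed to 0.542 to 4.52 TPM without and 0.639 to 3.82 TPM with auxin, most of it Vim, with Col1a1 at no more than 0.15 TPM. Trophectoderm markers (6 of 7) summed to 1.03 to 5.67 TPM without and 0.657 to 5.01 TPM with auxin. Most of it after release was Tfap2c, with release means of 2.57 TPM without and 1.73 TPM with auxin. In the authors' deposited table Tfap2c was called lower, and Gata3, at no more than 0.375 TPM in any group, was called higher. Of 5 markers of early differentiation 4 were in the table, with sums of 1.32 to 8.23 TPM without and 1.58 to 8.29 TPM with auxin. In the authors' deposited table T and Nes were called higher and Pax6 lower, and Nes had 0.622 TPM without and 1.22 TPM with auxin in asynchronous cells. T reached no more than 0.177 TPM in any group. Its release means, 0.0739 TPM without and 0.0546 TPM with auxin, went against its call. In asynchronous cells Esrrb transcripts had 3.86 TPM untreated and 2.53 TPM under auxin, and those of Nr5a2 had 3.87 and 3.40 TPM. These are RNA levels and do not measure the degraded proteins.

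The start regions of 3 of the genes overlapped an Nr5a2 peak, and their sequences are shown for that reason. Whether binding there bears on the transcript was not tested. RefSeq promoter windows on GRCm38.p6, 250 bases before to 50 bases after a gene's start, were found for 4 of the 6 genes: Igfbp2 (2 windows), Zc3h12a, Fabp3 and Tcl1. The 250 bases before the start are printed 5′ to 3′ on the gene's own strand, with the bases inside the peak in capitals. Peak positions are taken as the authors' list gives them on mm10, so an edge may be off by 1 base.
Igfbp2, plus strand, window chr1:72824230-72824529: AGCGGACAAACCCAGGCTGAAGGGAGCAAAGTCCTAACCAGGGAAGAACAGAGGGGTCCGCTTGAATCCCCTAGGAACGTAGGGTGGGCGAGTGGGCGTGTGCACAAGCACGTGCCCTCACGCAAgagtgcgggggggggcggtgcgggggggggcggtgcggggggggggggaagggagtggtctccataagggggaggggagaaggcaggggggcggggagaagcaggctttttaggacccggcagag
Fabp3, plus strand, window chr4:130308488-130308787: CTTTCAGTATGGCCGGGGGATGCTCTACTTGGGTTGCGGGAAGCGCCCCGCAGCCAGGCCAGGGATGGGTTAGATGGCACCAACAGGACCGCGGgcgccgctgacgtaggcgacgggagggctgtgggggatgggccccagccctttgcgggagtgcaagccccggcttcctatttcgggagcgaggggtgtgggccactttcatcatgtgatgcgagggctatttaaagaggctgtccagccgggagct
Tcl1, minus strand, window chr12:105222688-105222987: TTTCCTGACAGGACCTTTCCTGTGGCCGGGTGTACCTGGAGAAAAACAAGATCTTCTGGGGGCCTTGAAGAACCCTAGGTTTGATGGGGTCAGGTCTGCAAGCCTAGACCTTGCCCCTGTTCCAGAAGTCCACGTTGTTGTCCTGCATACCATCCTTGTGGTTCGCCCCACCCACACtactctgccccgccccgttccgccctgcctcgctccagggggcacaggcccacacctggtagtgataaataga
The Igfbp2 window shared 125 bases with a peak of class dB at chr1:72821905-72824354, and the Fabp3 window 94 bases with a dB peak at chr4:130306602-130308581. The Tcl1 window shared 177 bases with a peak of class L at chr12:105222811-105223502. The Zc3h12a window and the second Igfbp2 window met no peak. The class codes L, eB, dB and nB are the authors', and no source used here defines them. Among 9170 promoter windows of genes that reached 1 TPM in any group, 12.6% overlapped a peak, and among 915 windows of such genes called lower, 24.7% did. Receptor half-sites were searched in the whole windows of 300 bases, on both strands, as AAGGTCA, as TCAAGGTCA, which contains it, and as TCAAGGNCA, which overlaps both. None of the 5 windows of these genes held any of them. In all 32851 windows of the RefSeq table the shares were 4.72%, 0.423% and 1.62%, so most promoters lack these letters and their absence here says nothing about the factors.

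Ntn1 (chr11:68209364-68386826 on GRCm38.p6, a span of 177463 bp) had a course of its own among the 6. In the arm without auxin its level was 6.33 TPM in mitosis, then 6.0, 5.27, 4.74, 4.6 and 4.15 TPM from 20 to 60 minutes, 4.69 TPM at 90 and 7.17 TPM at 120 minutes, against 3.48 TPM in asynchronous cells. With auxin it was 3.99 TPM in mitosis, then 3.67, 3.73, 3.35, 2.83 and 2.48 TPM, 2.15 TPM at 90 and 2.46 TPM at 120 minutes, against 0.942 TPM in asynchronous cells. Every auxin value was below the value without auxin at the same stage. Netrin transcripts were thus highest in mitosis and at 120 minutes without auxin, and highest in mitosis with it. Between 60 and 120 minutes the arm without auxin went from 4.15 to 7.17 TPM, while the arm with auxin stood at 2.48 and 2.46 TPM. The auxin level was 63.1% of the untreated level in mitosis, 70.7% at 40 minutes, 45.9% at 90 and 34.2% at 120 minutes, and 27.1% in asynchronous cells.

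Fabp3 (chr4:130308738-130315463, 6726 bp) had the widest range of levels of the 6. Untreated cells had 0.732 TPM in mitosis, 1.12, 1.31, 1.39, 3.34 and 6.26 TPM from 20 to 60 minutes, 10.7 TPM at 90 and 7.93 TPM at 120 minutes, and 2.47 TPM when asynchronous. Cells with auxin had 0.458 TPM in mitosis, 0.539, 0.706, 0.920, 1.79 and 3.25 TPM from 20 to 60 minutes, 5.25 TPM at 90 and 3.61 TPM at 120 minutes, and 0.637 TPM when asynchronous. The highest level came at 90 minutes in both arms, at 14.6 times the mitotic level without and 11.5 times with auxin. After release the auxin level ran from 45.6% of the untreated level at 120 minutes to 66.1% at 40 minutes, at least 1.51-fold lower at each of the 7 times. In asynchronous cells it was 25.8% of the untreated level. This carrier and Ntn1 were the members with the largest differences in asynchronous cells, of -1.09 for Fabp3 and -1.20 for Ntn1 on the log2(TPM + 1) scale, which understates the change of low genes.

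Nid2 (chr14:19751257-19811787, 60531 bp) stayed near its mitotic level for 40 minutes. The untreated levels were 3.24 TPM in mitosis, 3.44, 3.23, 3.35, 5.17 and 8.05 TPM from 20 to 60 minutes, 7.5 TPM at 90 and 6.04 TPM at 120 minutes, and 4.55 TPM in asynchronous cells. The levels with auxin were 2.29 TPM in mitosis, 2.22, 2.33, 2.42, 3.86 and 5.05 TPM from 20 to 60 minutes, 4.66 TPM at 90 and 3.46 TPM at 120 minutes, and 2.86 TPM in asynchronous cells. Nidogen-2 transcripts peaked at 60 minutes in both arms. The auxin level was 74.6% of the untreated level at 50 minutes and 57.4% at 120 minutes, with 62.8% in asynchronous cells. Primitive endoderm also makes basement membrane proteins. All 5 of its markers in the table were under 1 TPM in every group, Gata6 and Gata4 at no more than 0.119 and 0.180 TPM. Whether such cells add to the Nid2 level was not tested.

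Igfbp2 (chr1:72824480-72852474, 27995 bp) was highest outside the release series. Without auxin it stood at 10.2 TPM in asynchronous cells and 3.55 TPM in mitosis, followed by 3.60, 3.29, 3.99, 6.81 and 8.44 TPM from 20 to 60 minutes, 6.18 TPM at 90 and 5.34 TPM at 120 minutes. With auxin it stood at 7.78 TPM in asynchronous cells and 2.63 TPM in mitosis, followed by 2.48, 2.56, 3.16, 5.45 and 6.14 TPM, then 3.49 TPM at 90 and 2.65 TPM at 120 minutes. Up to 60 minutes the 2 arms had like ratios to their own mitotic level (2.38 without and 2.33 with auxin at 60 minutes). At 120 minutes the untreated level was still 1.5 times the mitotic one, while the auxin level was 1.01 times its own. Accordingly the auxin level went from 80.0% of the untreated level at 50 minutes to 72.7% at 60, 56.4% at 90 and 49.6% at 120 minutes. In asynchronous cells it was 76.0%, the smallest difference there among the 6 (-0.36 on the log2 scale). The ratios to mitosis include a rise after release that most genes share. Under quantile normalization, which removes it, both arms were below mitosis at 120 minutes (log2 ratios of -0.56 without and -1.02 with auxin).

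Zc3h12a (chr4:125118414-125127881, 9468 bp) had its lowest ratio between arms early and its widest gap in TPM late. Its untreated levels were 1.43 TPM in mitosis, 1.44, 1.88, 2.41, 4.16 and 4.76 TPM from 20 to 60 minutes, 5.15 TPM at 90 and 4.74 TPM at 120 minutes, and 1.78 TPM in asynchronous cells. With auxin they were 0.793 TPM in mitosis, 0.763, 0.813, 1.26, 2.57 and 3.81 TPM from 20 to 60 minutes, 3.42 TPM at 90 and 2.95 TPM at 120 minutes, and 0.892 TPM in asynchronous cells. The auxin level was 43.3% of the untreated level at 30 minutes and 79.9% at 60 minutes, then 62.2% at 120 minutes and 50.1% in asynchronous cells. The gap itself was 1.06 TPM at 30 and 1.79 TPM at 120 minutes. Relative to its own mitotic level, this RNase transcript was higher with auxin at 60 minutes (4.80 times, against 3.32 times without). On TPM this was the opposite order to the other 5 genes at that time. Under quantile normalization Ntn1 (log2 ratios of -1.76 without and -1.61 with auxin) and Igfbp2 (-0.26 and -0.24) had the same order as Zc3h12a (0.05 and 0.44). The Zc3h12a level was highest at 90 minutes without and at 60 minutes with auxin.

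Tcl1 (chr12:105216753-105222737, 5985 bp) was the lowest of the 6 by its maximum. Without auxin the levels were 1.69 TPM in mitosis, 1.84, 1.92, 2.33, 2.77 and 3.99 TPM from 20 to 60 minutes, 3.46 TPM at 90 and 2.12 TPM at 120 minutes, with 2.37 TPM in asynchronous cells. With auxin they were 1.21 TPM in mitosis, 1.46, 1.29, 1.63, 2.05 and 2.48 TPM from 20 to 60 minutes, 2.0 TPM at 90 and 1.22 TPM at 120 minutes, with 1.41 TPM in asynchronous cells. Both arms were highest at 60 minutes, and at 120 minutes the auxin level was back at 1.01 times its mitotic level against 1.26 times without. Under quantile normalization both arms were below mitosis at 120 minutes (log2 ratios of -0.74 without and -0.84 with auxin). The auxin level ran from 79.3% of the untreated level at 20 minutes to 57.7% at 90 minutes, and was 59.5% in asynchronous cells.

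**Figure D1:**
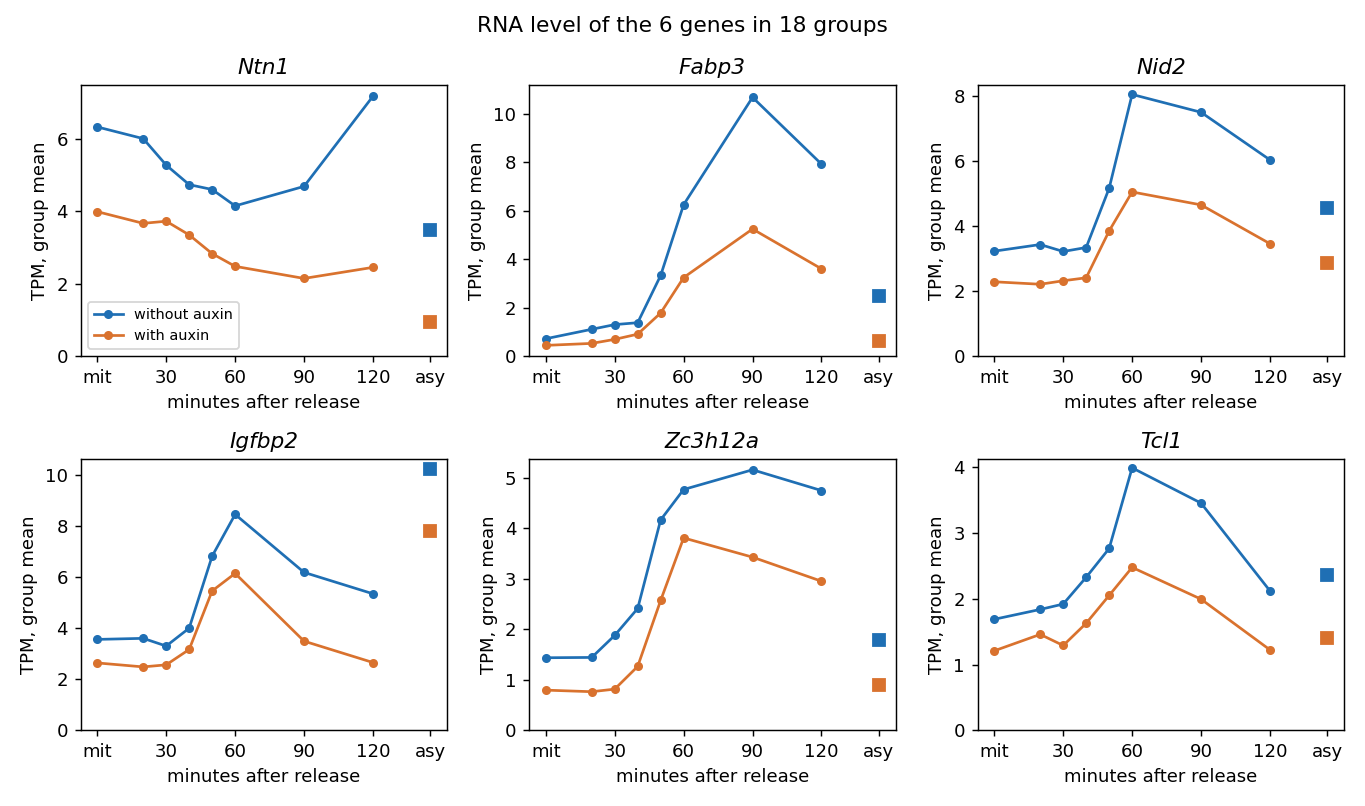
RNA level (TPM, the authors' mean of each group of 3 libraries, linear axis from 0) of the 6 genes against minutes after release, with mitosis (mit) at 0 and asynchronous cells (asy) as squares at the right; blue is without and orange with auxin. Every orange value lies below the blue value of its stage, Ntn1 is the one gene below its mitotic level at 60 minutes, and after release the other 5 genes are highest at 60 or 90 minutes.

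All 6 genes were lower with auxin at all 9 stages, which the choice of the genes favours for the release times. The stages behind the authors' call are not stated, and the genes were chosen with earlier results known. The differences in mitosis and in asynchronous cells are therefore no independent check. Lower at all 7 release times were 5.33% of the 8999 genes that reached 1 TPM in any group, 4.54% of all 13957 genes, and 40.9% of the 851 genes above that level that are called lower in the authors' deposited table. All 6 carry the call lower in the authors' deposited table, as do 7.26% of its genes. On log2(TPM + 1), the median difference of the 6 averaged over the release times was -0.49, against 0.02 over all genes of at least 1 TPM and -0.11 over those called lower. When the 1013 genes called lower were ranked by this difference, Ntn1 (-0.66) was 4th, Fabp3 (-0.64) 5th, Zc3h12a (-0.51) 9th, Nid2 (-0.48) 12th, Igfbp2 (-0.44) 15th and Tcl1 (-0.40) 26th. Upp1 (-0.76), Jam2 (-0.72) and Gm38509 (-0.68) ranked above them, and Nr0b1 (-0.39) and Got1 (-0.39) came just after Tcl1. Genes such as Ldhb, Lrrc34, Zfp57, Epha4 and Nanog rank among the 6 and are not members.

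A difference between arms was present before release. On log2(TPM + 1) the differences of the 6 genes in mitosis ran from -0.25 (Fabp3) to -0.55 (Ntn1), with a median of -0.34, against a median of 0.01 over all genes of at least 1 TPM, of which 46.2% were lower. The order depends on that scale, since on TPM the largest mitotic difference was that of Zc3h12a (1.81-fold), and Fabp3 (1.60-fold) and Ntn1 (1.59-fold) were close. In asynchronous cells the median of the 6 was -0.54, against -0.04 over all genes, of which 71.0% were lower. A count past a 1.5-fold difference also depends on the scale, because adding 1 shrinks the ratio of low levels. In mitosis 3 of the 6 were past it on TPM, Ntn1, Fabp3 and Zc3h12a (2.36% of all genes), and 0 on TPM + 1 (0.144%). In asynchronous cells 5 were past it on TPM, all but Igfbp2 (2.72%), and 2 on TPM + 1, Ntn1 and Fabp3 (0.489%).

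The median difference was largest in size late in the series. On log2(TPM + 1) the median of the 6 was -0.46 at 20 minutes, -0.38 at 30, -0.34 at 40, -0.44 at 50, -0.54 at 60, -0.63 at 90 and -0.73 at 120 minutes. Over all genes of at least 1 TPM it lay between -0.06 and 0.08 at these times, and the share of them that was lower was 69% at 20 minutes, 29.6% at 30, 28.3% at 40, 48.9% at 50, 80.5% at 60, 36.5% at 90 and 33.8% at 120 minutes. Zc3h12a differs from the other 5 genes in how its late difference compares with mitosis. Ntn1, Fabp3, Nid2, Igfbp2 and Tcl1 had a lower ratio of auxin to untreated TPM at 90 and at 120 minutes than in mitosis, as had 44.2% and 38.6% of all genes. Zc3h12a had a higher one, and its difference was larger than in mitosis at these times only on log2(TPM + 1), where all 6 were (41% and 36.9% of all genes). From mitosis to 120 minutes the log2 ratio of TPM moved by -0.88 for Ntn1, -0.58 for Igfbp2, -0.46 for Fabp3, -0.31 for Nid2, -0.31 for Tcl1 and 0.17 for Zc3h12a. On log2(TPM + 1) the order was another, with Fabp3 (-0.71) ahead of Ntn1 (-0.69) and Igfbp2 (-0.47).

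Fabp3 was past a 1.5-fold difference on TPM at all 7 release times, and Zc3h12a at all but 60 minutes. Counted over the 6 genes on TPM, 4 were past it at 20 minutes (2.33% of all genes), 2 at 30 (1.98%), 2 at 40 (1.59%), 3 at 50 (1.07%) and 4 at 60 minutes (1.31%). All 6 were past it at 90 (1.47%) and at 120 minutes (1.73%), Zc3h12a at 90 minutes by the narrowest margin (1.505-fold). On TPM + 1 there was 1 gene at each time from 20 to 60 minutes: Ntn1 at 20 (0.133%), Zc3h12a at 30 (0.156%) and 40 (0.367%), and Fabp3 at 50 (0.167%) and 60 minutes (0.311%). At 90 and 120 minutes there were 4 on that scale, Ntn1, Fabp3, Nid2 and Igfbp2 (0.4% and 0.545%). The summed level of the embryonic stem cell markers moved with the arm as well, at 99.7 TPM without and 75.2 TPM with auxin in asynchronous cells. Most of that change was Zfp42 (52.8 and 35.2 TPM). Pou5f1 was nearly level (9.94 and 9.72 TPM), and Dppa4 alone of the markers was higher with auxin (6.08 and 6.22 TPM). The part of these markers in the differences of the 6 genes was not tested.

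**Figure D2:**
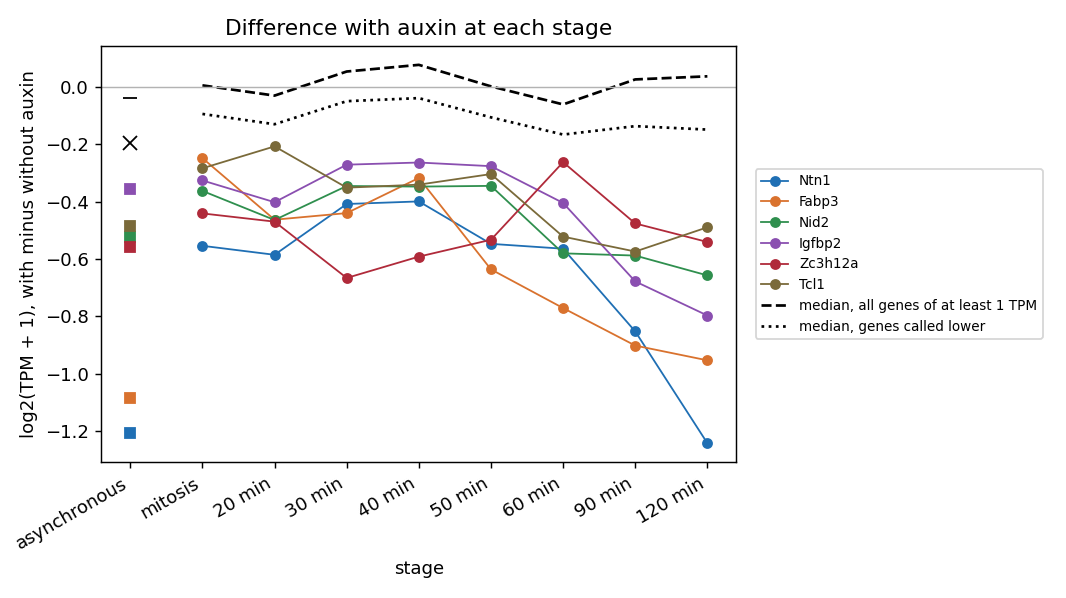
Difference in log2(TPM + 1), with minus without auxin, of each of the 6 genes at the 9 stages (asynchronous cells as separate symbols at the left), with the median over all genes of at least 1 TPM (dashed) and over those called lower (dotted). All 6 genes lie below both medians at every stage, and the lowest points are Ntn1 at 120 minutes (-1.24) and in asynchronous cells (-1.20).

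The return of the 6 genes after mitosis was then read within each arm. At 60 minutes 5 of the 6 were above mitosis without auxin, as were 95.4% of all genes of at least 1 TPM, and the same 5 were with auxin, against 94.2%. Ntn1, at 0.656 times its mitotic level without and 0.622 times with auxin, was the exception. The median log2 ratio of the 6 to mitosis was 1.07 without and 0.93 with auxin, close to the medians over all genes of 1.01 and 0.95. Quantile normalization removes that common shift. Under it Fabp3 (0.98 and 0.72) and Zc3h12a (0.05 and 0.44) stayed above mitosis at 60 minutes without and with auxin, Ntn1 stayed below, and the sign turned for Nid2 (-0.21 and -0.31), Igfbp2 (-0.26 and -0.24) and Tcl1 (-0.30 and -0.32). The value of Ntn1 at 120 minutes without auxin also went from 0.16 above to -0.89 below mitosis. Nid2 (-0.30 and -0.58), Igfbp2 (-0.56 and -1.02) and Tcl1 (-0.74 and -0.84) were likewise below mitosis at 120 minutes, without and with auxin. Between 60 and 120 minutes Nid2, Igfbp2, Zc3h12a and Tcl1 were lower at the later time without auxin, as were 63.3% of all genes, and with auxin Ntn1 was lower too (57.4% of all genes). The step was very small for Zc3h12a without auxin (4.76 to 4.74 TPM) and for Ntn1 with auxin (2.48 to 2.46 TPM).

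**Figure D3:**
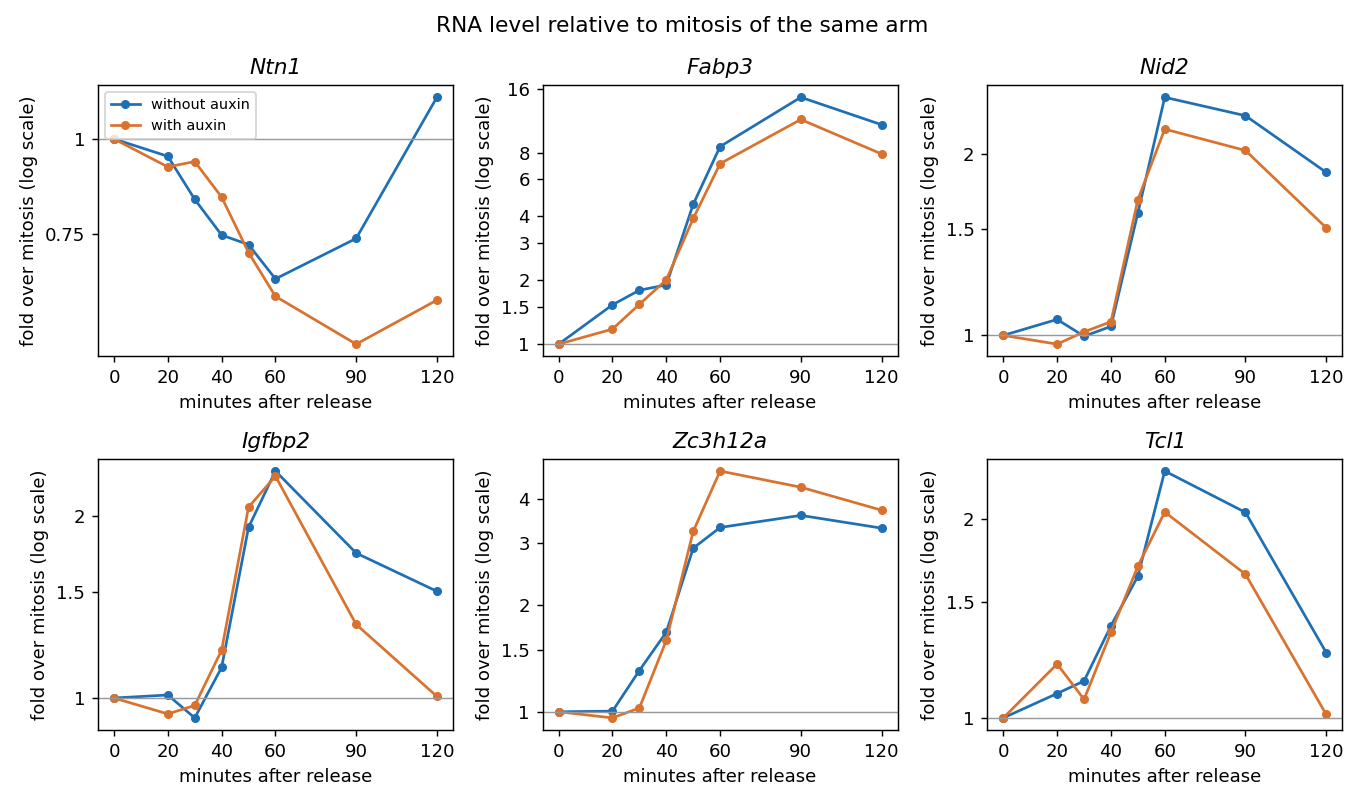
RNA level relative to mitosis of the same arm (log axis; 1 is the mitotic level) against minutes after release for the 6 genes, blue without and orange with auxin. The arms run close together up to 50 minutes for Nid2, Igfbp2 and Tcl1, the Ntn1 arms part between 60 and 120 minutes, and Zc3h12a is the one gene whose auxin curve lies above from 60 to 120 minutes.

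Levels of the 6 genes over the 18 groups were partly alike. Pearson's r of log2(TPM + 1) was 0.92 to 0.94 for the pairs of Fabp3, Nid2 and Zc3h12a, and 0.89 for Nid2 with Tcl1. Igfbp2 had 0.69 with Nid2 and 0.70 with Tcl1. Ntn1 had values of -0.17 to 0.26 with the other 5. The groups share their arm, stage and scaling, so these values describe courses that most genes have in part. By the same measure the gene most like Ntn1 was Tdh, an enzyme of threonine use (0.86), followed by Hmces (0.85) and the neuropilin gene Nrp2 (0.78). Most like Fabp3 were Mllt6 (0.98), Agpat2 (0.98), an enzyme of lipid synthesis, and B4galt5 (0.98). Nid2 was closest to Zfp59, Fblim1 and Mok (0.96 each), and Zc3h12a to Ubtf (0.98), a factor of ribosomal RNA transcription, Slc39a4 (0.97) and Zbtb7a (0.96). Igfbp2 was closest to the adenylate kinase gene Ak4 (0.94), Gm12925 (0.93) and Ifitm7 (0.92), and Tcl1 to Llgl2 (0.92), the ephrin receptor gene Epha4 (0.90) and Idh2 (0.89). Of these 18 genes, 6 were also among the 3 most alike by Spearman's rho.

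Nr5a2 peaks lay within 10 kb of all 6 genes, counting from the RefSeq span. This measure comes from wild-type cells. The genes were picked by RNA level, but with earlier results of these data known, so the peak counts may not be independent of the choice. At least 1 peak within 10 kb was found for 71.9% of the 8994 genes of at least 1 TPM with a position, and for 92.6% of the 851 called lower, so the count of 6 is near that of called genes. Inside the span 4 of the 6 had a peak, all but Fabp3 and Tcl1, against 48.1% and 76.3%, and within 50 kb all 6 did, against 92.3% and 98.1%. The 6 genes had a median of 4 peaks each, against 1 over all genes of at least 1 TPM and 3 over those called lower, with median spans of 18731.5, 21821.5 and 23579 bp. Of their 29 peaks, 15 were of class L, 6 of eB, 6 of dB and 2 of nB. In the whole list of 35266 peaks the shares are 65.1% L, 18.1% eB, 10.3% dB and 6.46% nB. Class dB was present within 10 kb of 4 of the 6 genes, against 19.1% of all genes and 42.3% of those called lower. Class eB was also near 4 of the 6, against 28.1% and 49.4%. One of these 2 classes was near 5 of the 6, all but Tcl1, against 40.3% and 71.7%. Class L was near 5 of the 6, against 54.4% and 78%, and class nB near 2, against 13.9% and 26.4%. With 6 genes these shares were not tested.

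By gene, the peaks were arranged differently. Ntn1 had 7 peaks inside its long span and 4 within 10 kb of the high-coordinate end, of which the eB peaks were at chr11:68266662-68267467, chr11:68320758-68321699 and chr11:68390430-68391603, and it had no dB peak. Fabp3 had none inside its span and 4 beside it, with the dB peak at its start (1979 bp wide) and another dB peak 6257 bp past its end at chr4:130321720-130322691. That second dB peak and an L peak at chr4:130316768-130317346 lie inside the span of the neighbour gene Zcchc17. Nid2 had a dB peak at chr14:19749447-19750180 and an eB peak at chr14:19750284-19751219, which ends 38 bp from the low-coordinate end of the gene. Igfbp2 had the dB peak at its start, 2449 bp wide, an eB peak inside the gene at chr1:72825681-72827092 and a dB peak 1142 bp past its end. The list's median width is 617 bp, and 0.312% of all peaks are as wide as the one at the Igfbp2 start or wider. Zc3h12a had an eB peak inside the gene at chr4:125124714-125126232, centred 2408 bp past its start, and nB and dB peaks 6170 and 7741 bp before its start. Tcl1 had 2 peaks, L and nB, both before its start, and no other peak within 50 kb. Igfbp2 had 12 and Ntn1 14 within 50 kb. Without a signal for each ChIP library in the list, interphase and mitotic binding at these sites were not compared.

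**Figure D4:**
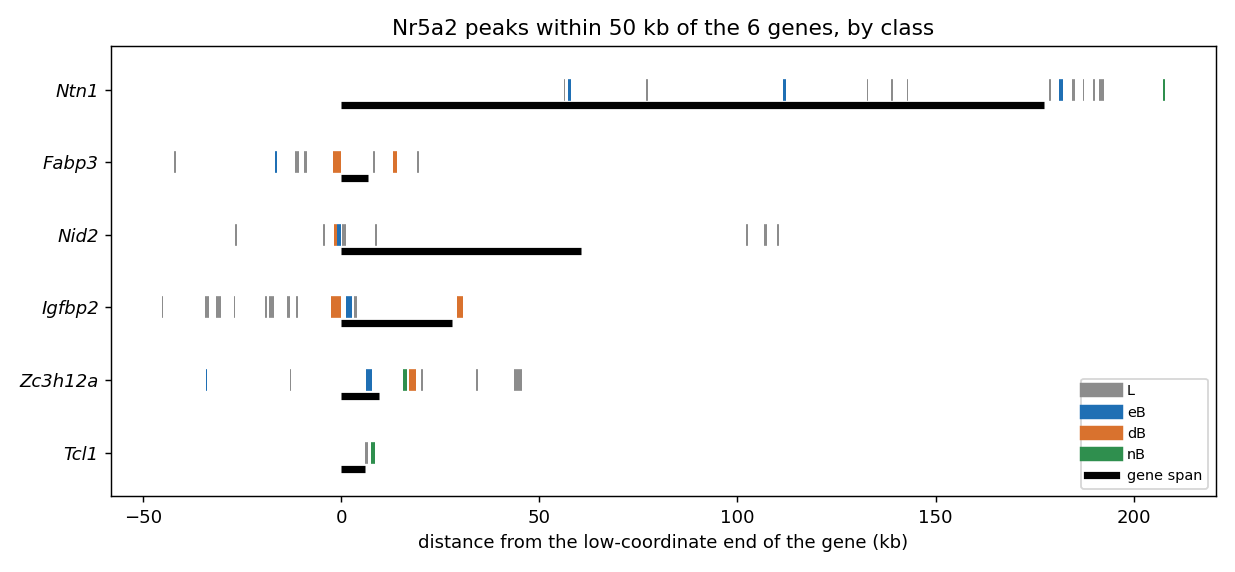
Nr5a2 peaks within 50 kb of each gene, drawn to scale against the distance in kb from the low-coordinate end of the gene; colours give the authors' class (grey L, blue eB, orange dB, green nB) and black bars the RefSeq gene span. Fabp3, Nid2 and Igfbp2 have a dB peak next to the low-coordinate end, Ntn1 and Tcl1 have no dB peak, and Tcl1 has 2 peaks in all.

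Within 100 kb of the 6 genes the table holds 10 other genes, 7 of them with at least 1 TPM. In calls of the authors' deposited table, 0 of the 10 were lower (7.26% of its genes) or higher (6.74%), and 0 of the 7 were lower at all 7 release times (5.33% of all genes), numbers too small to set against these shares. Zcchc17, which overlaps the end of Fabp3, had a release mean of 3.28 TPM without and 3.33 TPM with auxin, and Snrnp40, 44.7 kb away, had 4.85 and 4.89 TPM. Stx8, 2.22 kb from Ntn1, had 0.848 and 0.865 TPM. Gng2, 60.8 kb from Nid2, had 0.697 and 0.709 TPM. Near Zc3h12a, Meaf6 (5.18 kb) had 3.24 and 3.21 TPM and Gnl2 3.89 and 4.03 TPM. No other gene of the table lay within 100 kb of Igfbp2 or Tcl1.

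The partners and relatives of the 6 gene products were described from lists, and every call given for them is that of the authors' deposited table. Of 89 listed genes there, 8 were called lower (8.99%) and 17 higher, where 7.26% of the table's genes are called lower and 6.74% higher. The share called lower was thus near that of the table, while the share called higher was larger than that of the table. With at least 1 TPM, 6 of 61 were called lower and 15 higher. These shares were not tested. Among the 61 of at least 1 TPM, 5 were lower at all 7 times (5.33% of all genes), and the median release difference was 0.03, against 0.02 over all genes. Of 15 netrin pathway genes, 1 was called lower and 2 higher. The one lower was Mcam, a cell adhesion molecule reported to bind netrin-1, at 4.70 TPM without and 3.87 TPM with auxin on average after release. The netrin receptor Unc5b was called higher (2.42 and 2.71 TPM), and Neo1, another receptor, was not called (0.743 and 0.766 TPM). Dcc, the classical netrin receptor, was listed at 0 in all 18 groups.

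Of 17 basement membrane genes, 5 were called lower and 3 higher, where 7.26% and 6.74% of the table's genes are. Among the 12 of them with at least 1 TPM the calls were even, 3 lower and 3 higher. The list was drawn up with earlier results of these data known. Nid1, the other nidogen, was called lower at 0.582 TPM without and 0.475 TPM with auxin, under 1 TPM in every group. Called lower were also the laminin chains Lama1 (0.629 and 0.533 TPM, under 1 TPM in every group) and Lama5 (4.85 and 4.11 TPM), the perlecan gene Hspg2 (4.78 and 3.99 TPM) and the laminin receptor subunit Itga6 (2.74 and 2.30 TPM). The laminin chains Lamb1 (0.984 and 1.12 TPM) and Lamb2 (0.670 and 0.757 TPM) were called higher, as was Col18a1, although its release means were 3.29 and 3.26 TPM. Lamc1 was not called (5.14 and 5.27 TPM), nor was the laminin-binding agrin gene Agrn (6.64 and 6.57 TPM).

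The remaining 4 lists held 2 genes called lower. Of 12 genes of the insulin-like growth factor axis, 0 were called lower and 3 higher: Igfbp3, another binding protein (0.897 and 1.13 TPM), the adaptor Irs2 (4.71 and 5.06 TPM) and the RNA-binding Igf2bp2 (1.52 and 1.77 TPM). The receptor Igf1r was not called (0.463 and 0.485 TPM). Of 15 fatty acid genes, Cpt1a, which brings fatty acids into mitochondria, was called lower (0.845 and 0.722 TPM) and Acsl3, which activates them, higher (1.74 and 2.01 TPM). Fabp5, the paralog of Fabp3 with at least 1 TPM in the table, was not called (0.586 and 0.724 TPM). Among 14 genes of inflammatory mRNA decay, 8 of the 11 with at least 1 TPM were lower on average. Over all lists 23 of 61 were, and the share over all genes was not taken. The median release difference of the 11 was -0.03, against 0.02 over all genes of at least 1 TPM. Usp10, a deubiquitinase that works with regnase-1, was called lower (14.4 and 13.3 TPM). The RNA-binding Rc3h1 (2.51 and 2.70 TPM) and the adaptor Tank were called higher. The regnase relatives Zc3h12b and Zc3h12c were under 1 TPM in every group. Of 16 AKT pathway genes, 0 were called lower and 6 higher, among them the transcription factor gene Foxo1 (3.93 and 4.33 TPM) and Pik3cb, a catalytic subunit of PI3-kinase (2.32 and 2.56 TPM). Mtcp1, a paralog of Tcl1, was not called, at 0.309 TPM without and 0.137 TPM with auxin and lower at 4 of 7 times. Akt1, the kinase that Tcl1 binds, had 2.02 and 1.94 TPM and was not called.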

How the data were processed

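Total RNA was sequenced after ribosomal depletion, with strand kept, per the labels' protocols. STAR, RSEM, DESeq2, Bowtie2 and MACS2 are named with mm10, without versions or roles, per the submitters' processing notes. The authors deposited TPM as 1 mean per group. Times 3, each of the 246530 values above 0 was whole when counted in units of the last of 9 decimals (tolerance 0.02). No source used here says whether introns were counted, so spliced and unspliced RNA cannot be told apart. The authors' call per gene and the peak list with classes were used as deposited; no source used here gives the test, threshold or stages of that call.

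Differences are log2(TPM + 1), with minus without auxin, averaged over the 7 release times, on genes of at least 1 TPM in at least 1 of 18 groups. Libraries were averaged by the authors, so limma could not be run. Whether a group's 3 libraries were separate cultures is not stated. Peaks were assigned within 10 kb of RefSeq spans on GRCm38.p6 (13952 of 13957 symbols matched), and neighbours within 100 kb. Promoter sequences and gene positions are RefSeq's, on that build, which shares mm10 coordinates. Named were the 6 genes, both receptors, cell type markers, genes next in rank, the 3 most alike by Pearson's r, neighbours of at least 1 TPM, and list genes with a release difference of at least 0.15 or closely related to a member; other list genes that the text names were added for their call, after their values were seen. A few genes of the lists and neighbourhoods are not reported here by name. The members and lists were chosen with earlier results of these data known. Alternatives were median centring, quantile normalization, another pseudocount, each release time left out and other peak distances. Calculations used Python 3.11.15 with numpy 2.4.6 and pandas 2.3.3, and were tested on simulated data.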

Additional observations from a re-analysis of the deposited data

How the results depend on the processing

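All 6 genes stayed lower with auxin at all release times, in asynchronous cells and in mitosis under median centring and quantile normalization. Leaving a time out or changing the pseudocount could not turn the sign of a release difference, because each gene was lower at all 7 release times. The count of 60 of 60 settings with negative release differences includes these, so it is no test. The median release difference went from -0.49 to -0.65 with a pseudocount of 0.1. The median log2 ratio to mitosis at 60 minutes, 1.07 without and 0.93 with auxin, became 1.26 and 1.15 with that pseudocount and -0.23 and -0.27 under quantile normalization, which removes the common rise of all genes. Counts past 1.5-fold on TPM without a pseudocount, an alternative chosen after seeing the data, were 3 in place of 0 in mitosis, 5 in place of 2 in asynchronous cells, and 4, 2, 2, 3 and 4 in place of 1 from 20 to 60 minutes, since adding 1 shrinks ratios of low levels. Differences larger than in mitosis at 90 and 120 minutes were 5 in place of 6 on TPM and under quantile normalization, with Zc3h12a the exception. At 50 minutes the median ratio to mitosis was 0.66 and 0.69, and at 90 minutes 0.87 and 0.61. The count of list genes lower at all times ranged from 5 to 7, and that of neighbours was 0 throughout. Inside the gene span 4 of the 6 had a peak. Without 120 minutes the Ntn1 difference was -0.56. No paired analysis was possible because the deposited columns are group means with no replicate number, and no library could be left out for the same reason. The depth per library is unknown, and low levels such as those of Fabp3 before 50 minutes carry no stated error.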
